A study of Mus musculus with 39 samples.

Results

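The comparison concerns fasted quadriceps muscle of adult mice that had eaten a high-fat diet for 1 week as juveniles, set against the same muscle of mice given a control diet in that week. Its members were taken from the labels: every quadriceps library labelled as fasted, 6 from the juvenile high-fat diet (HFD) and 6 from the control diet (CD), which makes 12 of the 39 libraries of the series. All mice were C57BL/6J males, raised on chow after weaning. During weeks 6 to 7 the HFD mice received 45% of their calories as fat and the CD mice 10%. Both groups then ate chow until week 10 and the same high-fat diet from week 10 to week 22, so CD animals had also been on a high-fat diet for weeks when the muscle was taken. The feeding state covers the last 16 h. Fed quadriceps libraries, 4 HFD and 4 CD, are set beside the fasted ones, and 19 further libraries come from epididymal fat. Each library is poly-A RNA sequenced on an Ion Torrent Proton instrument. Whether every library came from its own animal is not stated; the p-values therefore cover the spread among these libraries, which may be technical.

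A fast moves skeletal muscle away from glucose. FoxO transcription factors switch on ubiquitin ligases and autophagy genes that release amino acids from muscle protein, PPAR receptors switch on fatty acid oxidation, and pyruvate dehydrogenase kinase 4 holds back glucose oxidation. Insulin resistance after long high-fat feeding touches the same pathways. The comparison asks whether a short high-fat exposure early in life leaves a difference in the fasted muscle transcriptome many weeks later.

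Between 7132441 and 14993394 reads were counted in HFD fasted libraries, and between 6730219 and 10633397 in CD fasted libraries. Reads set aside for low alignment quality made up 18.4% to 32.7% in HFD and 22.7% to 31.0% in CD fasted libraries. Gm42418, whose annotation covers ribosomal RNA sequence, took 69771 to 291585 CPM (counts scaled to a common library size) in HFD and 111502 to 197510 CPM in CD fasted libraries. The highest value belonged to HFD fasted 4, which also had the lowest counted share of its reads. The tissue label held: the 13 fast fibre markers summed to 144887 to 208355 CPM in HFD and 175203 to 199598 CPM in CD fasted libraries. All 13 were tested, and Myh4, the myosin heavy chain of the fastest fibres, alone reached 48400.0 to 82260.0 CPM on plain library sizes in HFD and 55793 to 80960.0 CPM in CD fasted libraries. The barcode number in the titles is written with a leading zero in 3 of 6 HFD and 2 of 6 CD fasted libraries; what this marks is not stated.

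No gene differed between HFD and CD fasted muscle at an adjusted p below 0.05. Of 12213 genes tested by the edgeR quasi-likelihood test with Benjamini-Hochberg adjustment, 0 passed (0%), and the smallest adjusted p was 0.123. At an unadjusted p below 0.05 there were 881 genes (7.21%), 487 with the higher level in HFD (3.99%) and 394 with the lower level (3.23%). DESeq2 called 3 genes and limma voom with quality weights called 0. The distribution of log2 fold changes, HFD over CD, was narrow, with a median of 0.02 and quartiles at -0.13 and 0.15. Intervals of single genes, not adjusted for the number of genes tested, bear on what could have been missed. They bound a difference between mice only if the libraries came from separate animals. For 10473 genes (85.8%) the 95% confidence interval of the difference lay within 2-fold in either direction, and for 7259 genes (59.4%) within 1.5-fold. Among the 2650 genes whose average log2 CPM reached 5, the interval lay within 2-fold for 2589. The common biological coefficient of variation was 0.203.

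Because no gene passed, the 12 protein-coding genes with the smallest p in each direction are described, as a ranking and not as calls. Their adjusted p ran from 0.309 to 0.43, and their log2 fold changes from 0.38 to 1.05 in size. In 6 of these 24 genes every HFD fasted library lay above every CD fasted one, and in 3 every HFD library lay below; over all tested genes this held for 38 genes (0.311%) and 20 genes (0.164%). These counts follow from how the genes were ranked and carry no support of their own. Levels below are CPM on TMM-scaled library sizes, given as lowest, median and highest of 6 libraries, and differences are log2 fold changes ± SE.

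**Figure D1:**
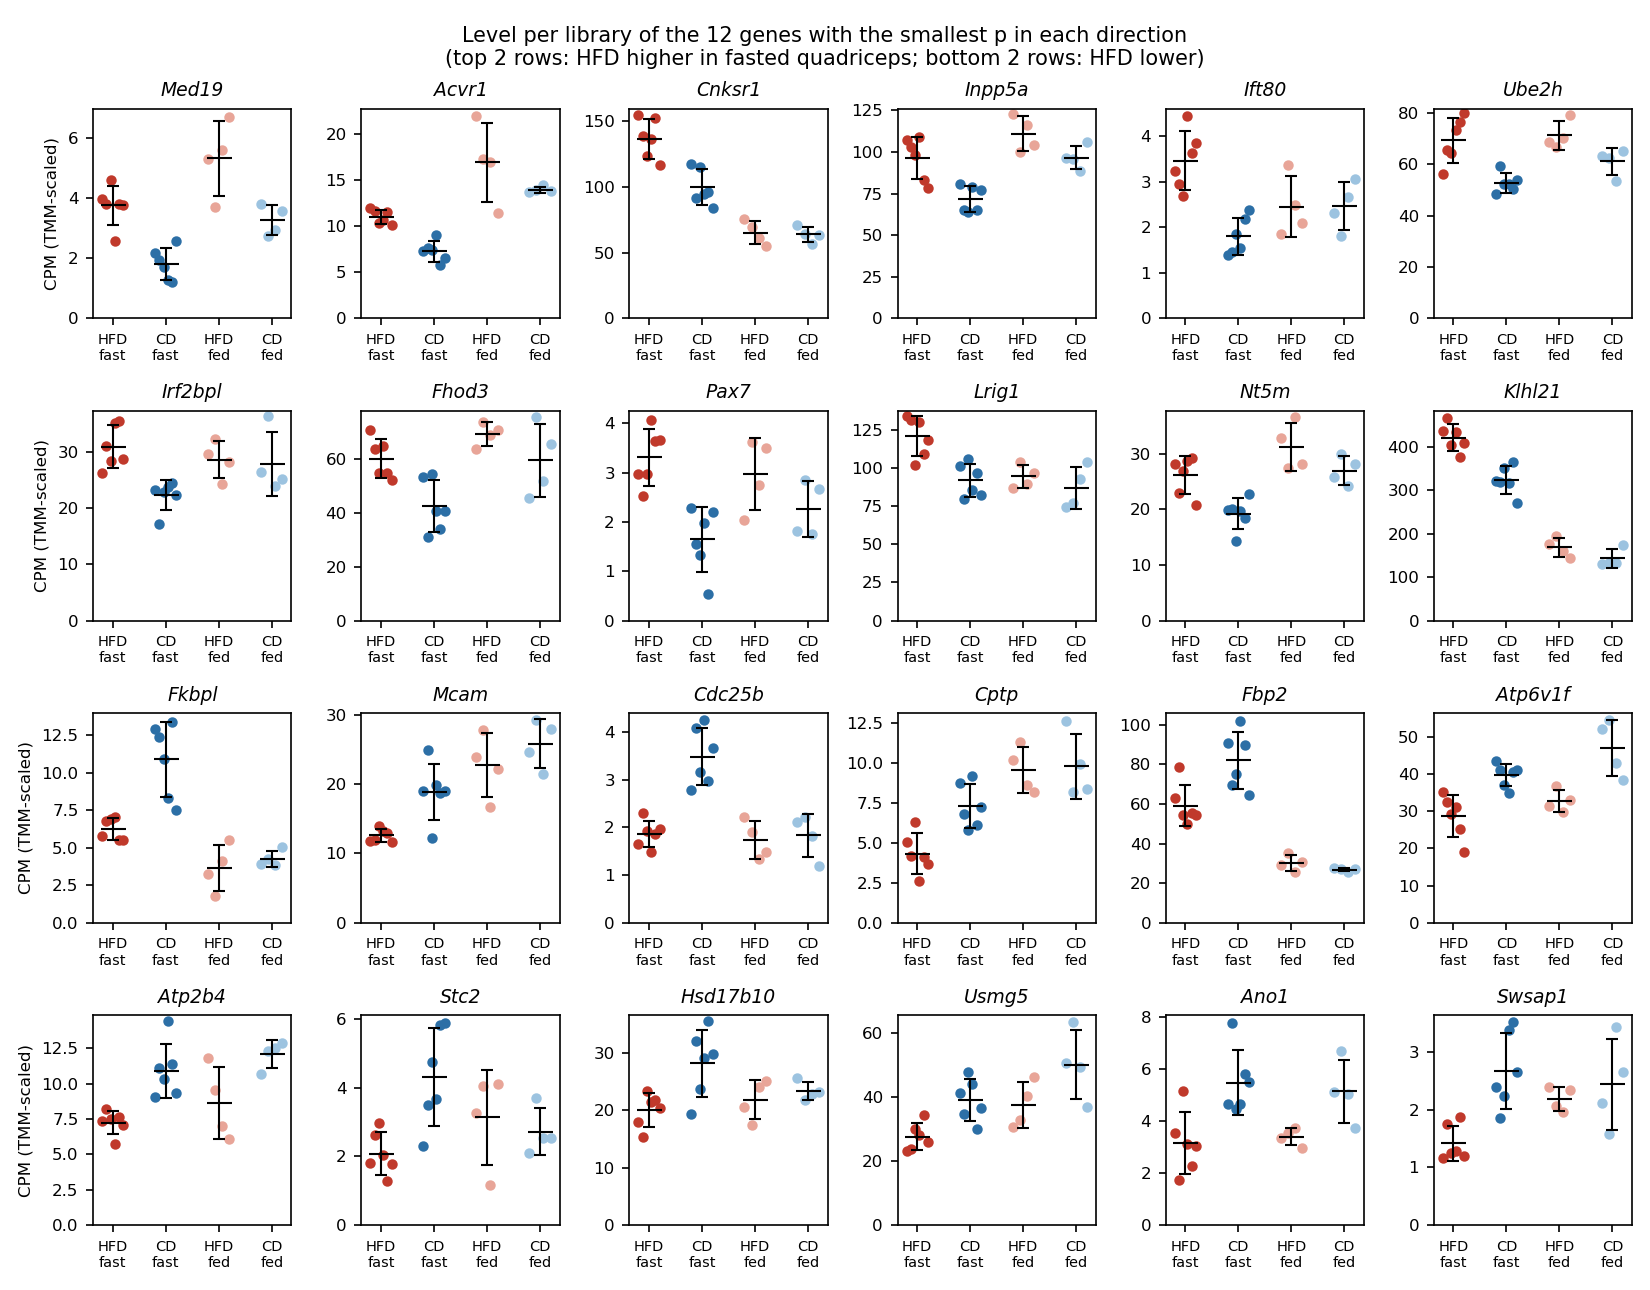
Level of the 24 genes ranked first by p in each quadriceps library, in CPM on TMM-scaled library sizes from 0 upwards, for HFD fasted (6 libraries), CD fasted (6), HFD fed (4) and CD fed (4). Points are libraries, and black bars are the group mean ± SD. The top 2 rows hold the 12 genes higher in HFD fasted libraries and the bottom 2 rows the 12 lower ones; the HFD and CD fasted points do not overlap in 9 panels, among them Med19, Acvr1, Klhl21 and Cdc25b.

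Med19, a subunit of the Mediator complex that links transcription factors to RNA polymerase II (2:84678402-84688215, GRCm38), headed the HFD-higher genes. It was at 2.59, 3.83 and 4.60 CPM in HFD fasted muscle, against 1.22, 1.83 and 2.57 CPM in CD fasted muscle. The lowest HFD library and the highest CD library were almost level, and the other libraries were clearly apart. The difference was 1.03 ± 0.22, or 2.05-fold, with a 95% interval of 0.59 to 1.48 (edgeR adjusted p = 0.309). Med19 is a low transcript in this tissue, counted by 14 to 60 reads per HFD and 9 to 28 reads per CD fasted library. It overlaps Tmx2 and Zdhhc5 on the other strand, and the strand setting of the counting is not given in the sources used here. The same limit holds for others of the 24 that overlap a protein-coding gene on the other strand. These are Acvr1, Inpp5a, Fhod3, Lrig1, Nt5m, Cdc25b and Usmg5. In epididymal fat libraries of fasted mice Med19 lay at 6.28 to 38.3 CPM in 5 HFD and 7.67 to 44.3 CPM in 6 CD libraries, with overlapping ranges. These fat values are on plain library sizes, not TMM-scaled ones.

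Acvr1, a type I receptor for bone morphogenetic proteins (2:58388644-58567157), was at 10.1, 11.1 and 12 CPM in HFD fasted muscle, against 5.82, 7.31 and 9.04 CPM in CD fasted muscle. The groups did not overlap, and the difference was 0.60 ± 0.14 (95% interval 0.32 to 0.89, edgeR adjusted p = 0.37). Lrig1, a membrane protein that damps signalling by receptors of the epidermal growth factor family, was at 102 to 134 CPM in HFD and 79.8 to 106 CPM in CD fasted libraries, with a difference of 0.40 ± 0.11. Cnksr1, a scaffold protein of Ras signalling, had a median of 137 CPM in HFD and 95.2 CPM in CD fasted libraries. Inpp5a, which removes a phosphate from the calcium-releasing messenger inositol trisphosphate, differed by 0.42 ± 0.10, and 5 of 6 HFD libraries lay above the highest CD library.

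Pax7, the transcription factor that marks satellite cells, the stem cells of muscle (4:139737062-139833528), was at 2.52, 3.31 and 4.07 CPM in HFD fasted muscle, against 0.542, 1.77 and 2.29 CPM in CD fasted muscle. Every HFD library was above every CD library, at a difference of 0.97 ± 0.26 (95% interval 0.44 to 1.5, edgeR adjusted p = 0.43). The count behind it was 22 to 58 reads per HFD and 4 to 24 reads per CD fasted library. The other satellite cell genes did not all share this pattern. The 8 markers of these cells summed to 36.7 to 43.2 CPM in HFD and 36.2 to 45.4 CPM in CD fasted libraries. Pax7 is a small part of these sums, so they say little about it. Of the 7 markers tested 4 had a higher and 3 a lower level in HFD, with a median of 0.02. The lowest of them, named for that reason, was Myf5, a regulator that most satellite cells express (-0.37 ± 0.35). Myod1, the master regulator of myoblast identity, differed by 0.41 ± 0.17 (unadjusted p = 0.0247), and by 0.62 without CD fasted 6. In whole muscle, more cells of a type and more RNA per cell cannot be told apart.

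Klhl21, an adaptor that brings substrates to a Cullin 3 ubiquitin ligase (4:152008803-152017680), was the most abundant of the 24. It stood at 376, 421 and 465 CPM in HFD fasted muscle, against 271, 320.0 and 364 CPM in CD fasted muscle, without overlap. The difference was 0.38 ± 0.10 (95% interval 0.17 to 0.59, edgeR adjusted p = 0.43). Klhl21 also belongs to the genes that fasting raised: its log2 ratio of fasted over fed libraries was 1.32 after HFD and 1.18 after CD. Ube2h, a ubiquitin-conjugating enzyme, was at 56.2 to 80.0 CPM in HFD and 48.3 to 59.4 CPM in CD fasted libraries. The other HFD-higher genes were Ift80, a part of the transport machinery of cilia (0.93 ± 0.23), Irf2bpl, a nuclear protein related to a partner of interferon regulatory factor 2 (0.47 ± 0.12), Fhod3, a formin that assembles actin in the sarcomere (0.50 ± 0.13), and Nt5m, a mitochondrial nucleotidase (0.44 ± 0.12). Of these, Ift80 and Irf2bpl did not overlap between the diets.

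Among the HFD-lower genes, Fkbpl, a binding partner of the chaperone Hsp90 (17:34644764-34646324), was at 5.49, 6.29 and 7.03 CPM in HFD fasted muscle, against 7.52, 11.7 and 13.4 CPM in CD fasted muscle. The groups did not overlap, at a difference of -0.81 ± 0.19 (95% interval -1.20 to -0.43, edgeR adjusted p = 0.37). Cdc25b, a phosphatase that activates cyclin-dependent kinases (2:131186949-131198497), was at 1.48, 1.89 and 2.30 CPM in HFD and 2.78, 3.41 and 4.24 CPM in CD fasted muscle. Its difference was -0.89 ± 0.22, again without overlap. Swsap1, a factor of homologous recombination, had a median of 1.27 CPM in HFD and 2.52 CPM in CD fasted libraries. Both Cdc25b and Swsap1 are expressed at the lower end of the range described here.

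Atp2b4, a calcium pump of the plasma membrane (1:133699457-133801041), was at 5.73, 7.42 and 8.21 CPM in HFD fasted muscle, against 9.04, 10.7 and 14.4 CPM in CD fasted muscle, without overlap (-0.57 ± 0.15). Ano1, a chloride channel opened by calcium, lay at 1.75 to 5.18 CPM in HFD and 4.48 to 7.78 CPM in CD fasted libraries (-0.80 ± 0.22). Atp6v1f, a subunit of the proton pump of lysosomes, had a median of 30.2 CPM in HFD and 40.7 CPM in CD fasted libraries (-0.47 ± 0.12). Stc2, a secreted glycoprotein, was at 1.28, 1.93 and 2.97 CPM in HFD and 2.29, 4.21 and 5.87 CPM in CD fasted muscle, and had the largest difference of the 24, at -1.05 ± 0.28.

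Genes of metabolism on this side included Fbp2, Hsd17b10 and Usmg5. Fbp2, the muscle fructose-1,6-bisphosphatase, which turns lactate carbon back towards glycogen (13:62836877-62858422), was at 49.9, 54.9 and 78.5 CPM in HFD fasted muscle, against 64.6, 82.3 and 102 CPM in CD fasted muscle. The highest HFD library was within the CD range and the other 5 were below it, at a difference of -0.47 ± 0.12 (95% interval -0.71 to -0.22, edgeR adjusted p = 0.423). Hsd17b10, a mitochondrial dehydrogenase that is also a subunit of mitochondrial RNase P, differed by -0.49 ± 0.13. Usmg5, a small protein of the ATP synthase, differed by -0.50 ± 0.14. The 12 HFD-lower genes had a median exonic length of 2732 bases and the 12 HFD-higher genes one of 4804.5, beside 4468 for all tested genes; with an offset for GC content and length, the 24 log2 fold changes moved by at most 0.04. The remaining genes were Mcam, an adhesion molecule of vessel wall cells (-0.59 ± 0.14), and Cptp, a carrier of ceramide-1-phosphate (-0.74 ± 0.18).

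The fed libraries share no library with the fasted difference, though they entered the filter, the scaling and the spread of the fit that ranked the genes. Of the 24 genes, 22 had the same direction of HFD over CD in fed muscle, beside 60.1% of all tested genes. All 12 HFD-higher genes did, and 10 of the 12 HFD-lower genes. The count goes by sign alone, and some of the fed differences in it were very small. These were Ift80 (0.01 ± 0.27), Cnksr1 (0.03 ± 0.13), Irf2bpl (0.03 ± 0.14) and Cptp (-0.03 ± 0.20). At an unadjusted p below 0.05 in fed muscle there were 5 of the 24 in the same direction, beside 4.42% of all genes in either direction: Med19, Atp6v1f, Atp2b4, Usmg5 and Ano1. With the title's number form as a term the count of 22 came to 19, with the share of low-quality alignments as a covariate to 21, and with an offset for GC content and transcript length to 21, beside 58.3%, 57.0% and 59.6% of all genes. The leading zero stands in 3 of 4 HFD fed titles and in 0 of 4 CD fed titles, so in fed muscle it goes largely with the diet.

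Med19 was at 3.71, 5.31, 5.6 and 6.71 CPM in the HFD fed libraries and 2.76, 2.94, 3.59 and 3.82 CPM in the CD fed libraries. Its fed difference was 0.71 ± 0.24 (unadjusted p = 0.0065), and it overlapped in 1 HFD library. Atp6v1f was at 29.9, 31.3, 33.1 and 36.8 CPM in HFD fed and 38.5, 42.9, 52.2 and 54.4 CPM in CD fed libraries, without overlap (-0.52 ± 0.15, unadjusted p = 0.00151). Pax7 lay at 2.04 to 3.62 CPM in HFD fed and 1.75 to 2.84 CPM in CD fed libraries, at 0.40 ± 0.30, so the fed libraries overlapped. In fed muscle as a whole 1 of 12213 genes passed the adjusted threshold (0.00819%): Gm37009, a processed pseudogene named after its values were seen, lower in HFD (-1.59, edgeR adjusted p = 0.0473).

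**Figure D2:**
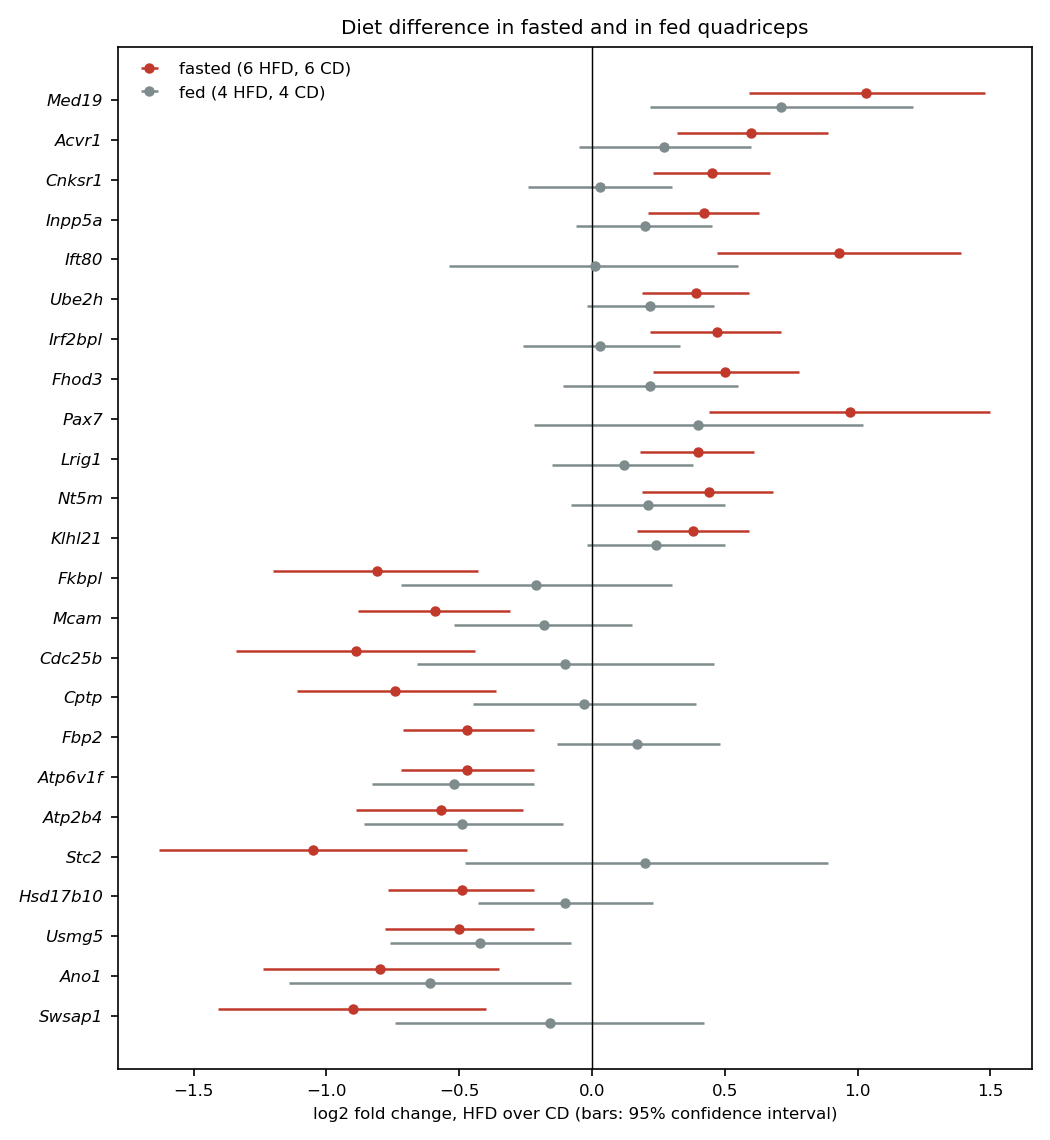
Log2 fold change of HFD over CD for the 24 genes in fasted quadriceps (red, 6 HFD and 6 CD libraries) and in fed quadriceps (grey, 4 HFD and 4 CD libraries). Points are edgeR estimates and bars 95% confidence intervals. The fed estimates of Fbp2 (0.17) and Stc2 (0.20) lie on the other side of 0 from the fasted ones, and those of Med19, Atp6v1f, Atp2b4, Usmg5 and Ano1 exclude 0 on the same side.

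No gene passed the test of the difference between the fasted and the fed diet effect (0%; smallest adjusted p = 0.723), and 300 genes (2.46%) had an unadjusted p below 0.05. Of the 24, 7 were among these 300, and since the 24 were picked for a large fasted difference, which enters this contrast, that count is a description only. Fbp2 had the smallest p of them. Its level was 25.7 to 35.4 CPM in HFD fed and 25.8 to 27.6 CPM in CD fed libraries, so the diets overlapped in fed muscle, and the difference between the diet effects was -0.64 ± 0.19 (unadjusted p = 0.00225). Fasting itself raised Fbp2 after either diet, by 0.97 after HFD and 1.61 after CD on the log2 scale. Stc2 (-1.25 ± 0.44), Ift80 (0.92 ± 0.35), Cdc25b (-0.79 ± 0.35), Cptp (-0.71 ± 0.27), Irf2bpl (0.44 ± 0.19) and Cnksr1 (0.42 ± 0.17) were the others.

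The ubiquitin ligases of the fasting programme overlapped between the diets. Trim63, the ubiquitin ligase MuRF1 that tags myofibrillar proteins, was at 1482, 1871 and 2374 CPM in HFD fasted muscle, against 1337, 1776 and 2624 CPM in CD fasted muscle. The groups overlapped throughout, and the difference of -0.03 ± 0.15 had a 95% interval of -0.33 to 0.28 (edgeR adjusted p = 0.985); its sign turned with several settings. Fbxo32, the ubiquitin ligase atrogin-1, was at 1622 to 2129 CPM in HFD and 1536 to 2214 CPM in CD fasted libraries, with an interval of -0.28 to 0.42. In fed libraries Trim63 stood at 144 to 174 CPM after HFD and 132 to 214 CPM after CD. The fasting response of Trim63 was thus 3.58 on the log2 scale after either diet, and that of Fbxo32 was 3.28 after HFD and 3.15 after CD. These fasting responses share the fasted libraries with the diet comparison.

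Most genes of fuel use overlapped between the diets as well. Pdk4, the kinase that switches off pyruvate dehydrogenase, was at 2495, 2960.0 and 3080.0 CPM in HFD and 2116, 2423 and 3139 CPM in CD fasted muscle (0.21 ± 0.33). Cpt1b, the gate for fatty acid entry into muscle mitochondria, was at 47.3 to 64.8 CPM in HFD and 48.9 to 66.8 CPM in CD fasted libraries. The fatty acid transporter Cd36 (-0.11 ± 0.24), the lipase Lpl (0.20 ± 0.31), the glucose transporter Slc2a4 (0.05 ± 0.10), the insulin receptor substrates Irs1 (0.07 ± 0.21) and Irs2 (0.15 ± 0.16), the FoxO factor Foxo1 (-0.18 ± 0.15) and the coactivator Ppargc1a (-0.02 ± 0.19) all overlapped between the diets. Their intervals excluded 2-fold differences in either direction. The clock genes Nr1d1 (0.22 ± 0.14) and Dbp (0.04 ± 0.43) overlapped too, the interval of Dbp reaching -0.88 and 0.95.

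Ucp3, the mitochondrial uncoupling protein of muscle, differed from the other fuel genes in that its fasted groups did not overlap. It stood at 365, 422 and 505 CPM in HFD fasted muscle, against 272, 336 and 355 CPM in CD fasted muscle, so that all HFD libraries were above all CD ones. The fitted difference was 0.41 ± 0.22 (95% interval -0.06 to 0.87, edgeR adjusted p = 0.716; 0.446 in a fit of the 12 fasted libraries alone). In fed muscle the order was the other way round, with 35.4, 43.7, 53.6 and 121 CPM in HFD and 67.7, 71.3, 101 and 124 CPM in CD libraries. The difference between the diet effects was 0.93 ± 0.35 (unadjusted p = 0.0164). It passed the adjusted threshold when HFD fed 3, the library at 121 CPM, was left out (edgeR adjusted p = 0.00591) and in none of the other settings run for this difference.

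**Figure D3:**
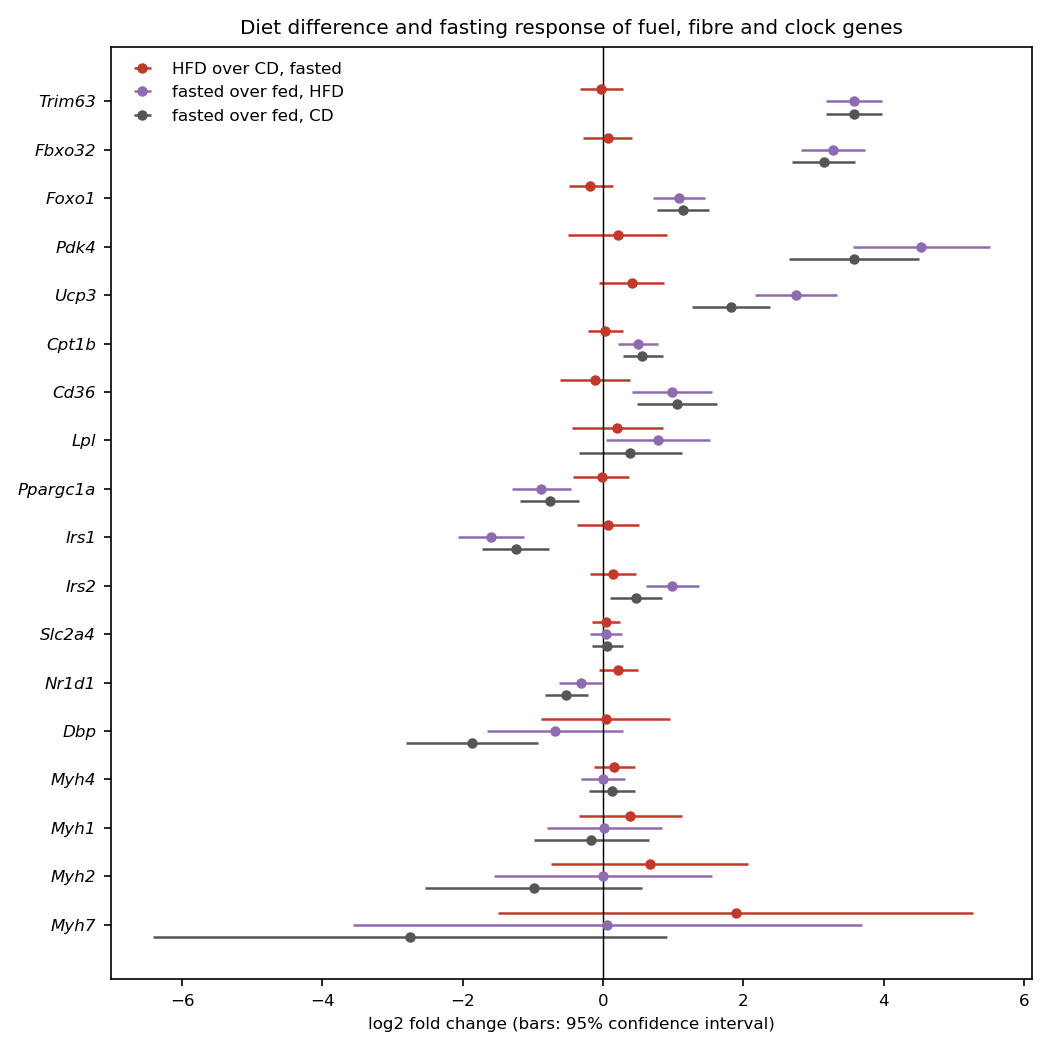
Log2 fold changes with 95% confidence intervals for 18 genes of muscle fuel use, insulin signalling, the clock and fibre type: HFD over CD in fasted muscle (red), fasted over fed after HFD (purple) and fasted over fed after CD (grey). The diet difference of Trim63 is -0.03 beside fasting responses of 3.58 after either diet; every red interval includes 0, and that of Myh7 is the widest.

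The gene lists were read by the count of members below an unadjusted p of 0.05 and by their median, since no member of any list passed the adjusted threshold. Over all genes these shares are 3.99% with HFD higher and 3.23% with HFD lower, and the median is 0.02. In the FoxO atrophy and autophagy list, 1 of 23 genes was on the higher side, the autophagy receptor Sqstm1 (0.26 ± 0.10), and 2 were on the lower side, the F-box protein Fbxo21 (-0.38 ± 0.14) and the autophagy initiator Becn1 (-0.24 ± 0.12). Without CD fasted 2 the Fbxo21 difference was -0.25. The median was 0.03, and for all 23 the interval lay within 2-fold. The fasting medians of this list were 1.10 after HFD and 1.11 after CD. Of 28 genes of fatty acid uptake and oxidation 0 were below 0.05 in either direction, with a median of 0.03 and members from -0.29 to 0.41. Glucocorticoid-responsive genes (18 tested, 0 and 0, median -0.06), extracellular matrix genes (25 tested, 0 and 0, median -0.02) and interferon genes (18 tested, 0 and 0, median 0.03) were alike in this.

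Of 20 genes of insulin signalling and glucose uptake, 3 were below an unadjusted p of 0.05 with HFD higher and 0 with HFD lower. Tbc1d1, a regulator of glucose transporter traffic, had a median of 121 CPM in HFD and 85.0 CPM in CD fasted libraries (0.43 ± 0.15), and the others were the kinase Akt1 (0.26 ± 0.11) and the hexokinase Hk2 (0.28 ± 0.13). Of 20 genes of glycolysis and glycogen, 3 were on the higher side and 0 on the lower: Ugp2 (0.58 ± 0.22), Gys1 (0.27 ± 0.12) and Gbe1 (0.45 ± 0.21). These 3 encode enzymes of glycogen synthesis, but they were picked by their p from the 20, and a shared change of this pathway was not tested. Apart from leaving out single libraries, the settings gave 0.17 to 0.92 for Ugp2 and 0.15 to 0.37 for Gys1. Ugp2 was at 401 CPM in HFD fasted 5 and 408 CPM in HFD fasted 6. The other HFD fasted libraries reached at most 295 CPM. In fed muscle it was at 328 CPM in HFD fed 3 and 311 CPM in HFD fed 4. HFD fed 1 and HFD fed 2 were at 187 and 130 CPM, and CD fed libraries at most at 240 CPM. Rps14, a ribosomal protein gene, and Hibch, of amino acid breakdown, were also highest in HFD fasted 5, HFD fasted 6, HFD fed 3 and HFD fed 4. These libraries have a leading zero in their titles, as do HFD fasted 4 and HFD fed 2. What they share was not tested. Gys1, glycogen synthase, was at 441, 530.0 and 651 CPM in HFD fasted muscle, against 422, 445 and 460.0 CPM in CD fasted muscle. In 5 of 6 HFD libraries it lay above the highest CD library. The medians of both lists, 0.06 and 0.10, were close to that of all genes.

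Mitochondrial genes were divided. Of 33 nuclear genes of oxidative phosphorylation 2 were on the higher side, Cox5a (0.74 ± 0.24) and Uqcrfs1 (0.30 ± 0.13), and 2 on the lower side, Ndufa1 (-0.38 ± 0.13) and Ndufa2 (-0.31 ± 0.12). The median was 0.06. Cox5a rested in part on HFD fasted 6, at 189 CPM beside 101 CPM in the next HFD fasted library, HFD fasted 5. It differed by 0.47 without HFD fasted 6 and by 0.24 to 1.15 across the other settings. In fed muscle it was at 133 CPM in HFD fed 3 and 111 CPM in HFD fed 4. HFD fed 1 and HFD fed 2 were at 84.0 and 67.7 CPM, and CD fed libraries at most at 103 CPM. Of the 13 protein-coding transcripts of the mitochondrial genome 12 had a higher level in HFD, beside 6497 of all 12213 tested genes. Transcripts of the same small genome need not vary independently, so this count is a description only. Of these 12, 2 were below an unadjusted p of 0.05, mt-Nd4l and mt-Co3. The list's median was 0.24 in fasted and -0.09 in fed muscle. The remaining transcript, mt-Nd6, was at 1.28, 2.48 and 5.13 CPM in HFD fasted muscle, against 3.79, 6.23 and 10.1 CPM in CD fasted muscle (-1.14 ± 0.39). It is the one of the 13 that is transcribed from the other strand, where it overlaps mt-Nd5 in the annotation, and without a known strand setting its reads cannot be assigned with certainty. Its fed difference was -1.74 ± 0.48 (unadjusted p = 0.00182). Ribosomal protein genes had 1 of 29 on the higher side and 5 on the lower, with a median of -0.05 and members from -0.46 to 0.50. Ribosomal protein genes have many processed copies in the genome, so their counts are uncertain.

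Among stress genes, the unfolded protein and amino acid response had 3 of 15 on the higher side and 1 on the lower, with a median of 0.19. The higher ones were Herpud1, a protein of the degradation machinery of the endoplasmic reticulum (0.38 ± 0.11, every HFD library above every CD library), the transcription factor Ddit3 (0.72 ± 0.25) and the folate enzyme Mthfd2 (0.51 ± 0.24). The lower one was asparagine synthetase, Asns, at -1.40 ± 0.48. The Mediator list, 31 tested genes, held 2 on the higher side and 0 on the lower: Med19 and Med18 (0.83 ± 0.39). Its median was 0.07, and the interval lay within 2-fold for 28 of the 31, against an interval of 0.59 to 1.48 for Med19 itself. Of 14 imprinted growth genes 1 was on the higher side, Gnas (0.24 ± 0.10), and 3 on the lower, Rian (-0.60 ± 0.23; -0.39 without CD fasted 4), Meg3 and Nnat. In the circadian clock list of 19 only Nfil3 was below 0.05 (0.44 ± 0.16, and 0.66 ± 0.19 in fed muscle). Among 15 genes of branched-chain amino acid breakdown only Hibch was (0.55 ± 0.20). Hibch was at 16.6 CPM in HFD fasted 5 and 19.4 CPM in HFD fasted 6. The other HFD fasted libraries reached at most 12.2 CPM, and the CD fasted libraries at most 11.2 CPM. Apart from leaving out single libraries, the settings gave 0.21 to 0.81 for Hibch.

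In further lists, the growth hormone and IGF axis had 0 of 15 on the higher side and 1 on the lower, the IGF-1 receptor Igf1r (-0.41 ± 0.18). Fatty acid and cholesterol synthesis had 1 of 22 on the higher side, the sterol-responsive transcription factor Srebf2 (0.30 ± 0.13), and 2 on the lower, Idi1 (-0.40 ± 0.18) and Acly (-0.46 ± 0.21). Of 17 PPAR and PGC-1 regulators 1 was higher, the mitochondrial deacetylase Sirt3 (0.32 ± 0.15), and 1 lower, the retinoid receptor Rxrg (-0.35 ± 0.12). Lipolysis and lipid droplet genes had 0 of 15 higher and 1 lower, Dgat1, the enzyme of the last step of triglyceride synthesis (-0.64 ± 0.23). Dgat1 was at 22.0 CPM in CD fasted 1 and in CD fasted 2, where Adipoq was at 53.6 and 44.0 CPM. It was at 7.77 CPM in CD fasted 3, where Adipoq was at 4.34 CPM. In HFD fasted 5, with Adipoq at 48.8 CPM, Dgat1 was at 12.3 CPM, the highest of the HFD fasted libraries. In CD fasted 6, with an adipocyte marker sum of 1367 CPM, Dgat1 was at 8.71 CPM. With 4 adipocyte transcripts as a covariate the Dgat1 difference was -0.21, and over all settings it ran from -1.11 to -0.20. Its cause was not tested.

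The other lists held few genes below an unadjusted p of 0.05. Denervation and neuromuscular junction genes had 0 of 12 on the higher side and 1 on the lower, the myogenic factor Myog (-0.69 ± 0.30), and inflammation genes 0 of 9 and 1, the lipocalin Lcn2 (-1.08 ± 0.48). Brown and beige fat markers had 0 of 6 and 1, the uncoupling protein Ucp1 (-3.25 ± 1.18). Ucp1 was highest in CD fasted 2, at 13 CPM, the library with the highest adipocyte sum, and at 0 in 4 of 6 HFD and 1 of 6 CD fasted libraries. Smooth muscle and pericyte markers had 1 of 9 higher, Kcnj8 (0.42 ± 0.17), and 1 lower, Tagln (-0.34 ± 0.16). Muscle calcium handling genes had 0 of 16 in either direction and a median of 0.11. The same count of 0 in either direction held for fibroblast (11 tested), Schwann cell (7), erythroid (5), chaperone (15), chromatin modifier (16) and cell cycle genes (9).

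**Figure D4:**
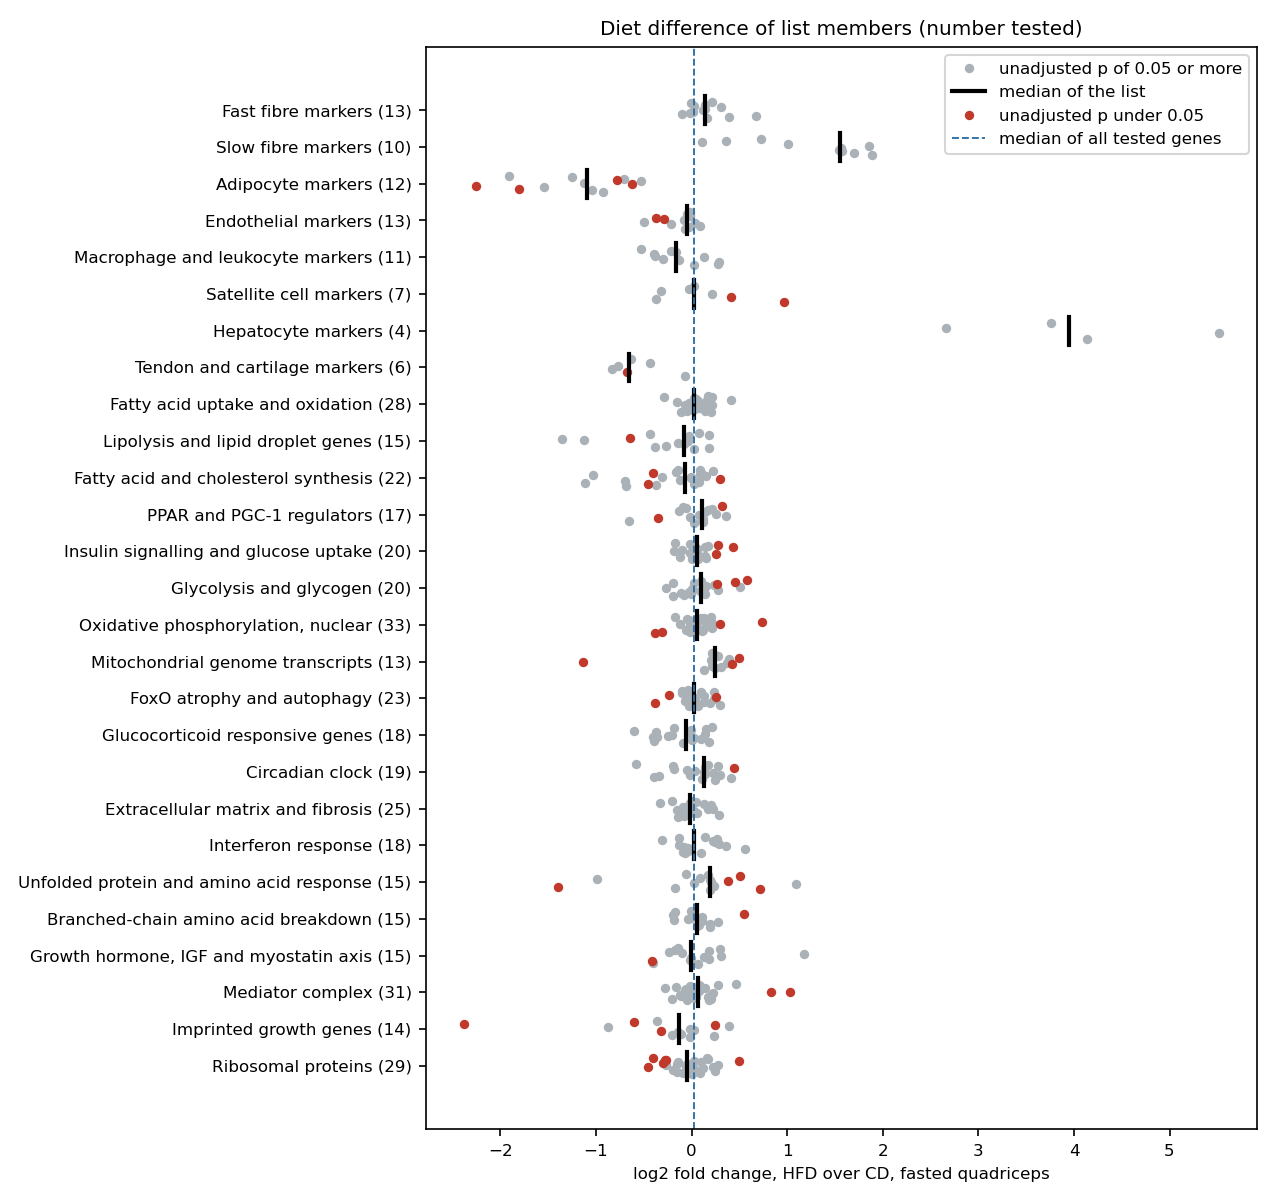
Log2 fold change of HFD over CD in fasted quadriceps for the tested members of 27 gene lists, with the number tested in brackets. Each point is a gene, red where its unadjusted p was below 0.05, and black bars are list medians. Most medians lie near that of all genes (0.02, dashed); the slow fibre (1.55) and hepatocyte (3.95) lists lie to the right and the adipocyte (-1.09) and tendon (-0.66) lists to the left.

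The widest shifts belonged to marker lists of other cells, and they came with a large spread between libraries. Over all tested genes 6497 had a higher and 5716 a lower level in HFD fasted muscle. All 12 adipocyte markers had a lower level in HFD fasted muscle, with a median of -1.09, and 4 of them were below an unadjusted p of 0.05: the carbonic anhydrase Car3 (-0.78 ± 0.27), leptin (Lep, -2.26 ± 0.83), the lipid carrier Fabp4 (-0.62 ± 0.26) and the droplet coat protein Plin1 (-1.81 ± 0.83). Their summed level was 502, 609 and 1377 CPM in HFD fasted libraries, against 512, 1569 and 2157 CPM in CD fasted libraries. HFD fasted 5 stood alone at the top of its group, the other 5 HFD libraries reaching 688 CPM. In the CD group 3 libraries, at 512, 997 and 1367 CPM, lay within the HFD range, and 3 lay above it. Car3 and Fabp4 are also expressed by muscle cells and vessels. Adiponectin (Adipoq), which fat cells alone secrete, was at 0.192, 6.37 and 48.8 CPM in HFD and 4.34, 18.3 and 53.6 CPM in CD fasted muscle (-0.93 ± 0.87). Single libraries decided these values: Adipoq differed by -2.16 without HFD fasted 5 and by -0.54 without CD fasted 1, and Lep by -1.27 without CD fasted 2, which held 6.42 CPM of it. In fed muscle the list's median was -0.23, with sums of 489 to 883 CPM in HFD and 426 to 1070.0 CPM in CD libraries. With the summed level of 4 adipocyte transcripts as a covariate 0 genes passed, and the difference was 1.03 for Med19 and 1.00 for Pax7.

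Slow fibre markers had the opposite lean, all 10 with a higher level in HFD and a median of 1.55, but 0 of 10 were below an unadjusted p of 0.05. Their sum ranged from 42.1 to 1701 CPM in HFD fasted libraries (median 388) and from 44.7 to 537 CPM in CD fasted libraries (median 237). Myh7, the slow myosin heavy chain, was at 1.09 to 789 CPM in HFD (median 117) and had a median of 60.4 CPM in CD fasted libraries, and its interval reached -1.49 and 5.27. Fed libraries had the lean the other way, with a list median of -0.87. Of the fast myosins, Myh2 (0.67 ± 0.66), Myh1 (0.39 ± 0.35) and Myh4 (0.16 ± 0.14) overlapped between the diets. Without HFD fasted 4 the Myh7 difference was 1.06, and without HFD fasted 3 it was 0.30 for Myh2 and 0.18 for Myh1. The part of fibre composition in the diet differences was not tested.

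Hepatocyte genes, which muscle should lack, were present at trace level in some libraries. The 8 markers summed to 0.200 to 44.7 CPM in HFD fasted and 0.194 to 1.69 CPM in CD fasted libraries, and the highest sum of all quadriceps libraries was 574 CPM, in CD fed 3. Their part in the result was not tested. Cps1 and Plg, 2 further liver genes that DESeq2 called, were at 0 in all 6 CD fasted libraries. They reached 1.14 and 1.44 CPM on plain library sizes in HFD fasted ones. Both were named after their values were seen. Tendon and cartilage markers leaned lower in HFD (6 of 6, median -0.66), with sums of 8.82 to 62.7 CPM in HFD and 9.51 to 89.6 CPM in CD fasted libraries. Endothelial markers had 2 of 13 on the lower side, Esam (-0.29 ± 0.12) and Egfl7 (-0.37 ± 0.15), with a list median of -0.05. Their sums overlapped, at 460 to 890 CPM in HFD and 513 to 771 CPM in CD fasted libraries. Macrophage and leukocyte markers summed to 30.0 to 134 CPM in HFD and 64.9 to 75.5 CPM in CD fasted libraries, with 0 of 11 below 0.05. Epididymal markers were near 0, at no more than 0.200 CPM in HFD and 0.375 CPM in CD fasted libraries.

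**Figure D5:**
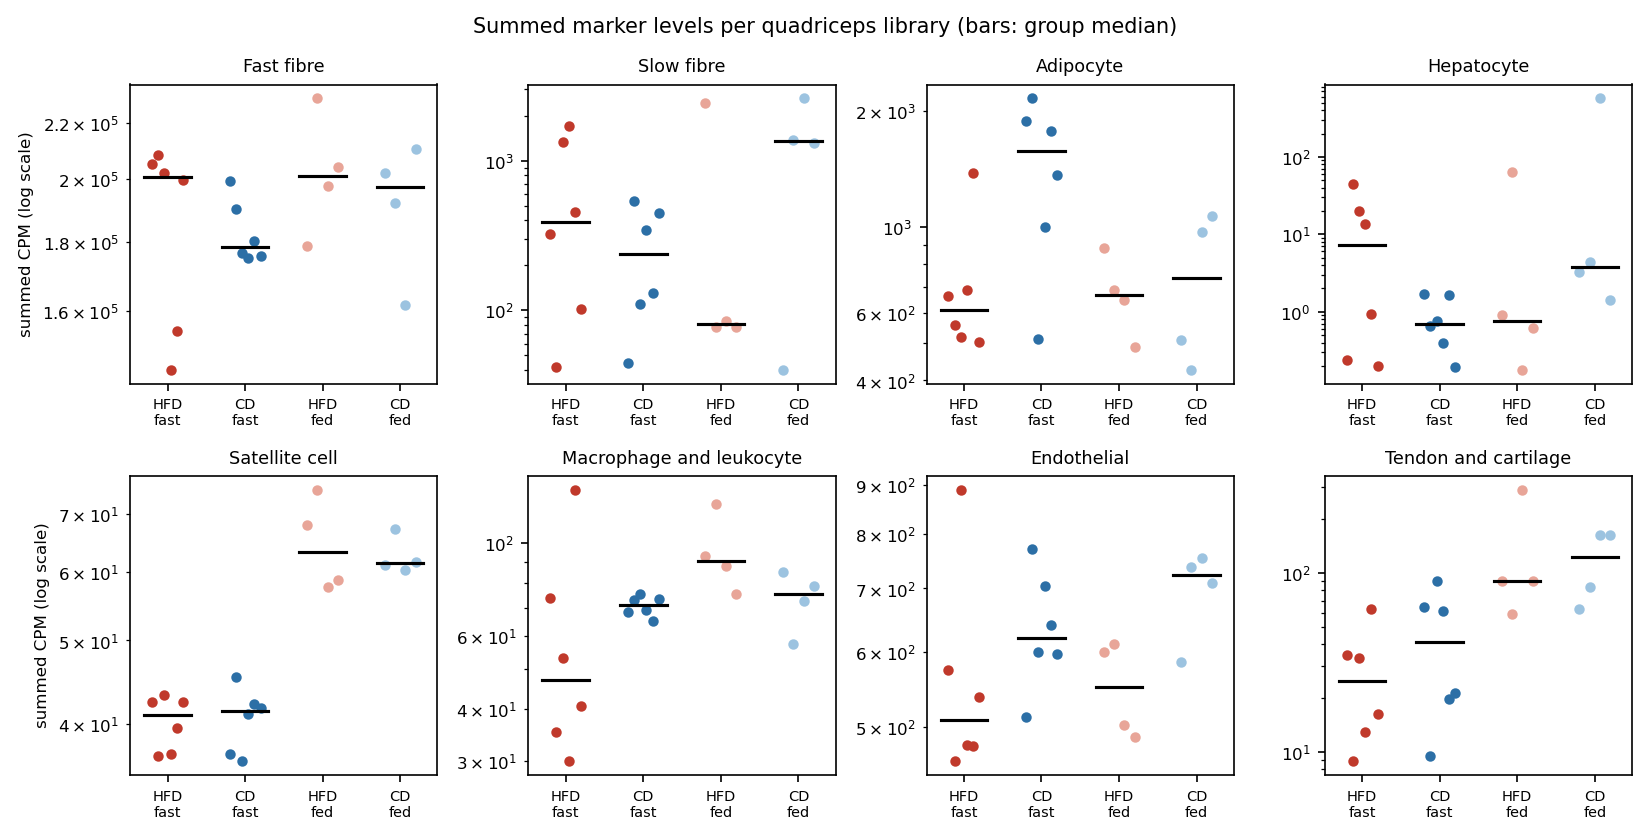
Summed CPM of 8 marker lists in each quadriceps library on log axes that differ between panels, for HFD fasted, CD fasted, HFD fed and CD fed libraries; points are libraries and black bars group medians. The adipocyte median is 609 CPM in HFD fasted and 1569 CPM in CD fasted libraries, with HFD fasted 5 at 1377 CPM, slow fibre sums spread over 42.1 to 1701 CPM in HFD fasted libraries, and satellite cell sums of the fasted groups overlap.

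The smallest p of all genes belonged to Gm22009, annotated as a small Cajal body RNA and lying inside Kpna4 on the same strand (3:69085105-69085447), which lies outside the naming rule and was picked after its values were seen. It was at 0, 0.52 and 1.08 CPM in HFD fasted muscle, against 0.733, 4.0 and 8.05 CPM in CD fasted muscle. One CD library, CD fasted 6, lay within the HFD range and the other 5 above it. The difference was -2.79 ± 0.50 (edgeR adjusted p = 0.123). It passed the adjusted threshold in DESeq2 (-2.86, adjusted p = 0.000141), with the title's number form as a term (-2.94, edgeR adjusted p = 0.0155), with the share of low-quality alignments as a covariate (-3.24, edgeR adjusted p = 0.0246) and without CD fasted 6 (-3.02, edgeR adjusted p = 0.0013). In fed muscle it was at 0.266 to 1.03 CPM in HFD and 0.664 to 3.31 CPM in CD libraries (-1.83 ± 0.60, unadjusted p = 0.00588). As it lies within another gene, its reads cannot be told apart from those of Kpna4 with certainty.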

How the data were processed

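Poly-A RNA of quadriceps was sequenced, and the authors deposited 1 file per library with integer read counts per Ensembl gene, without normalization. The build was GRCm38, and HTSeq 0.6.0, TopHat2 2.1.0 and Bowtie2 2.2.5 are listed, per the submitters' processing notes. Annotation release, quality cut-off and strand setting: not given in the sources used here. The 5 summary lines of each file were left out of library sizes. Of 45232 gene identifiers 44585 had a symbol in GENCODE M21, which also gave positions (1-based).

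Counts of 20 quadriceps libraries were filtered by filterByExpr, scaled by TMM and fitted with a robust quasi-likelihood model in edgeR 4.0.16, with 1 mean per group and a shared spread. Contrasts were HFD minus CD in fasted and in fed muscle, their difference, and fasted minus fed within each diet. Tests were two-sided, and p was adjusted by Benjamini-Hochberg across 12213 genes (threshold 0.05). SE was the absolute log2 fold change divided by the square root of F, and intervals used the t distribution. Summed marker levels use CPM without TMM scaling. Without molecular identifiers, PCR copies of a molecule are counted too.

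Named genes were the 12 smallest p per direction among protein-coding genes averaging a log2 CPM of 1 or more, up to 2 members with the smallest p of each described list, and 20 genes of interest; others of a list are named where their unadjusted p was below 0.05. The members and the 39 lists were chosen with earlier results of these data known. Alternatives used RLE scaling, other filters, DESeq2 1.42.0, limma 3.58.1, sva 3.50.0, covariates, single libraries left out, and an offset for GC content and exonic length over 12184 genes. No 2 fasted libraries agreed within counting noise (lowest chi-square per degree of freedom 7.78).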

Additional observations from a re-analysis of the deposited data

Results flagged for a closer look

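Single libraries stood apart from the other 5 of their group by Dixon's criterion in 9 of 116 groups checked; chance alone flags about 1 in 20 groups. HFD fasted 5 was high for Adipoq (48.8 CPM, next 14.2 CPM) and for the summed adipocyte markers (1377 CPM, next 688 CPM). HFD fasted 3 was high for the endothelial (890.0 CPM, next 574 CPM), Schwann cell (55.0 CPM, next 34.5 CPM) and erythroid markers (250.0 CPM, next 119 CPM). CD fasted 5 was high for the erythroid markers too, at 248 CPM. CD fasted 2 was high for the brown and beige fat markers (547 CPM, next 378 CPM) and low for Irf2bpl (17.1 CPM, next 22.3 CPM), 1 of the 24 ranked genes. CD fasted 3 was high for Ppargc1a (8.69 CPM, next 7.33 CPM). Without HFD fasted 5 the Adipoq difference was -2.16, against -0.93 with it.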

How the results depend on the processing

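The count of 0 genes for diet in fasted muscle remained 0 in 12 of 15 other settings. DESeq2 called 3 (Cps1, Plg and Gm22009), the title number form as a term 1 and the share of low-quality alignments as a covariate, added after seeing the data, 1 (Gm22009 in both). Leaving out single libraries gave 0 to 1, the 1 being Gm22009 without CD fasted 6. In fed muscle the 1 call became 2 in DESeq2, 0 in limma voom and 0 with the GC and length offset, also added later, and 0 to 2 without single libraries. The difference of the diet effects had 2 calls in DESeq2 (Plg and Cyp26b1) and 0 to 1 without single libraries (Cyp26b1 without CD fed 4, Ucp3 without HFD fed 3). None of the 24 ranked genes turned direction or passed the threshold in any setting.

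Of 95 named genes 82 never turned direction. Within titles with a leading zero (3 HFD and 2 CD libraries) the log2 fold change was -0.02 for Atp2a1, 0.35 for Trim63, -0.09 for Cpt1b, 0.24 for Cd36, -0.02 for Slc2a4, 0.04 for Foxo1, 0.20 for Ppargc1a, -0.13 for Myh4, -0.09 for Nr1d1 and -0.67 for Dbp. Within titles without it Fbxo32 was at -0.02 and Irs1 at -0.22. With 1 surrogate variable Cpt1b was at -0.02. With the 4 adipocyte transcripts as a covariate Trim63 was at 0.03 and Adipoq at 0.03; in the fasted libraries alone Trim63 was at 0.01 and Ppargc1a at 0.05. With the low-quality share Trim63 was at 0.14 and Dbp at -0.03. Without single libraries the range was -0.02 to 0.15 for Irs1, -0.10 to 0.06 for Ppargc1a, -0.11 to 0.08 for Trim63, -0.23 to 0.02 for Cd36, -0.11 to 0.47 for Dbp and -0.01 to 0.08 for Cpt1b. The cause of these moves was not tested.

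No paired analysis was possible because the labels give the libraries no replicate numbers shared between groups. Low transcripts such as Med19 and Pax7 rest on few reads, which limits their precision.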
